A study of Rattus norvegicus with 8 samples.

Results

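Heat shock proteins and chaperones were described across 4 groups of aged rat hearts as a list of 41 genes named by symbol. The list was chosen with earlier results of these data known. The list held 7 small heat shock proteins, 7 Hsp70 and Hsp110 genes, 6 Hsp40 and BAG partners of Hsp70, 9 genes of Hsp90 and its co-chaperones, mitochondrial Hsp60 and Hsp10, 8 subunits of the cytosolic chaperonin CCT and 2 heat shock factors. Of the 41 genes, 38 had at least 1 probe set annotated to that symbol alone, and each was represented by the brightest of these. Hspa1b, Hspa8 and Hsp90aa1 had no such probe set and were not analysed here. Hspa2, an Hsp70 best known from the testis, lay below the filter on dim probe sets at 2.33 to 4.09 on the log2 scale and was not tested. The other 37 genes were tested among 10450 genes.

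The hearts came from female Norway Brown rats aged 18 to 22 months. Sham rats had the body cavity opened and closed and kept their ovaries, and Ovx rats had them removed. Early estrogen rats were ovariectomised and received, during the same operation, a 0.5 mg slow-release pellet of 17-β estradiol made to last 90 days. Late estrogen rats received the same pellet 9 weeks after ovariectomy, so both estrogen groups and the Ovx group lacked ovaries. Each group had 2 arrays, and each array held equal amounts of RNA from 3 hearts, so a p-value here measures the spread between pools, which may be technical. The sources used here give neither the heart chambers sampled nor the interval from surgery to collection.

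Chaperones bind proteins that are unfolded or not yet folded. Small heat shock proteins hold such proteins without using ATP, Hsp70 with its Hsp40 partners and nucleotide exchange factors folds and releases them, and Hsp90 with its co-chaperones matures kinases and steroid hormone receptors, the estrogen receptors among them. The chaperonins Hsp60 and CCT enclose their clients, CCT chiefly actin and tubulin, and the small heat shock proteins of heart muscle guard the contractile apparatus. The transcription factor Hsf1 switches on many of these genes during proteotoxic stress by binding heat shock elements, which are inverted repeats of the unit GAA.

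Values are log2 of the deposited signal after quantile normalization, so a difference of 1 is a 2-fold change. The arrays as deposited differed in brightness, with a trimmed mean signal of 28.19 to 70.01 on the 4 replicate 1 arrays and of 104.2 to 137.5 on the 4 replicate 2 arrays. Late estrogen replicate 1 was the dimmest, and its ratio of the 3′ to the 5′ Gapdh probe set, a sign of RNA length, was 2.703 against 1.26 to 1.648 on the other 7 arrays. The same ratio for actin did not single it out, at 3.007 against 1.711 to 3.061 on the other 7, with Ovx replicate 2 highest. Heart muscle markers were present on every array, with the myosin heavy chain Myh6 at 12.41 to 12.76. The mean deviation of the 6 tested cardiomyocyte markers of 7 listed stayed within -0.10 to 0.07, while that of 6 fibroblast markers ran from -0.63 to 0.47 and that of 6 macrophage markers from -0.95 to 0.99. The 4 atrial markers, all tested, spread most, from -1.0 on late estrogen replicate 2 to 1.71 on early estrogen replicate 1. None of 4 adipocyte markers passed the filter. In pooled tissue, fewer cells of a type and less RNA per cell cannot be told apart.

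The chaperone genes as a whole varied little across the 4 groups. The median range of a gene's 4 group means was 0.23 over the 37 genes, against 0.46 over all genes tested, and the largest, of the heat shock factor Hsf1, was 0.65. The 954 genes at least as bright as the median chaperone gene had a median range of 0.24, so the list varied about as much as those genes. That set was not matched for brightness, because the dimmer chaperone genes lie below every gene in it. In an F test over the 4 groups (limma, Benjamini-Hochberg), 0 of the 37 passed an adjusted p of 0.05 and 0 had an unadjusted p under 0.05. The background was 0% of 18625 probe sets called and 1.86% with an unadjusted p under 0.05. Bag3, which links Hsp70 to the small heat shock proteins, had the smallest unadjusted p of the list, 0.114 in limma's F test, with an adjusted p of 1.

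**Figure D1:**
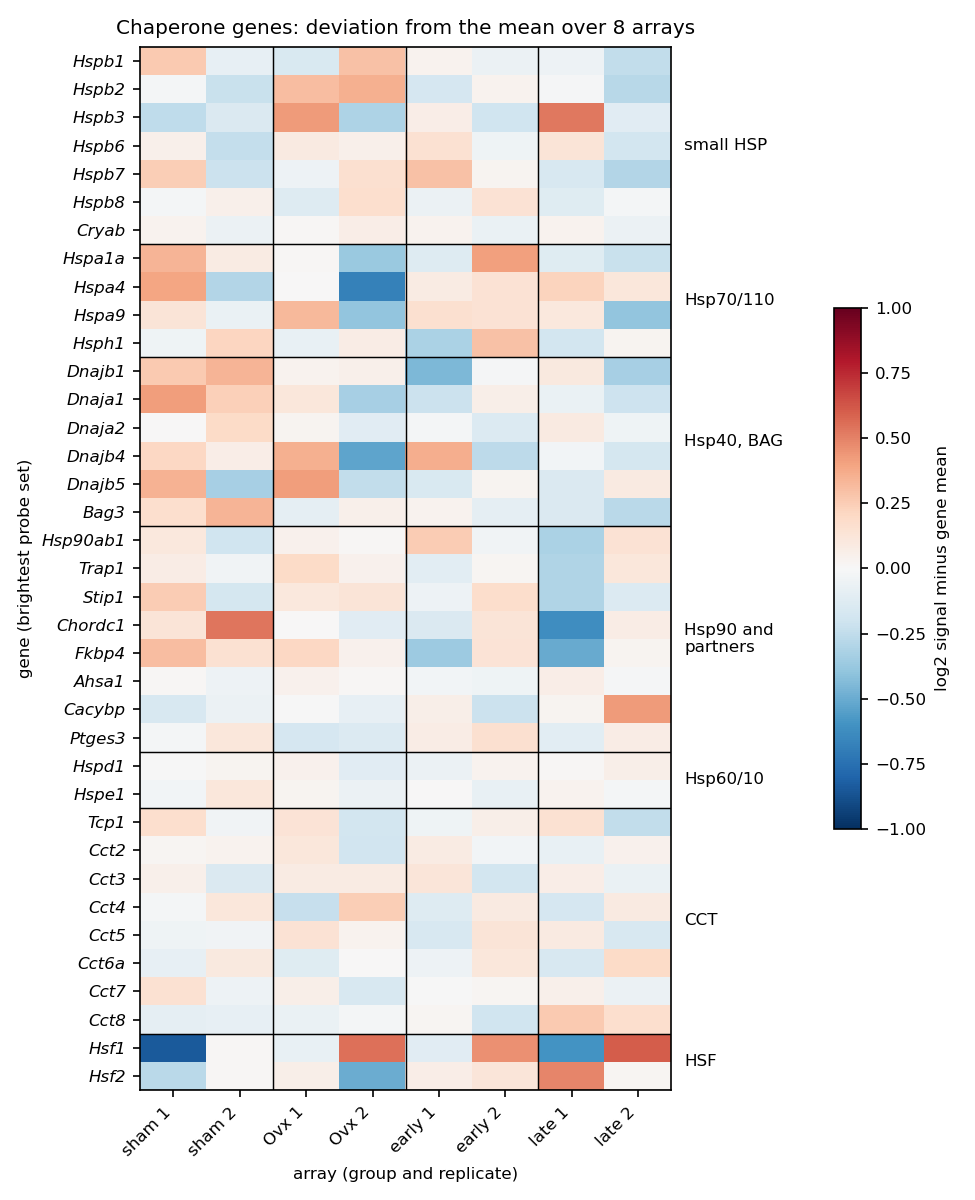
Each row is 1 of the 37 tested chaperone genes and each column 1 array, and the colour is the gene's log2 signal minus its mean over the 8 arrays. Rows of Cryab, Hspd1, Hspe1 and the CCT subunits are pale throughout, the rows of Dnajb1, Dnaja1 and Bag3 are red in both sham columns, and Hsf1 spans 1.44.

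The room that the data leave for a difference was read from the 95% intervals. For 30 of the 37 chaperone genes (81.1%), the interval lay inside a 2-fold change in all 6 pairwise comparisons, against 32.3% of all genes tested. For 14 of the 37 it lay inside a 1.5-fold change. These genes were brighter than most. Among the 954 genes at least as bright as the median chaperone gene, 90.5% had every interval inside a 2-fold change. The 7 exceptions were the small heat shock protein Hspb3, the Hsp110 family member Hspa4, the stress-inducible Hsp40 Dnajb1, the Hsp90 co-chaperones Chordc1 and Fkbp4, and both heat shock factors. All but Hspb3 were dimmer than the median chaperone gene. All 8 CCT subunits and both mitochondrial chaperonin genes were inside it. The same design recovered 2% of simulated 2-fold and 23% of simulated 4-fold changes over 18625 probe sets in Ovx against sham, so a gene without a call may still have changed. These intervals rest on the scaling: without normalization between arrays, or with only the array medians set equal, 0 genes had every interval inside a 2-fold change.

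Read by comparison, no gene of the list was called, as 0% of 18625 probe sets were in each of the 6 comparisons. At an unadjusted p under 0.05 stood 0 of the 37 chaperone genes in Ovx against sham (background 1.47%), 0 in early estrogen against Ovx (1.71%), and 1, Hspb2, in late estrogen against Ovx (4.36%). The counts were 0 in late against early estrogen (3.87%), 0 in early estrogen against sham (0.773%), and 1, Bag3, in late estrogen against sham (3.37%). Their smallest adjusted p in any comparison was 0.943 (limma).

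Separated arrays with the first-named group below were about as frequent for chaperone genes as for other genes. With the first-named group above they were less frequent, except in Ovx against sham. Those upward counts were only 2 to 5 of 37 genes, and the shares were not tested. Both Ovx arrays lay above both sham arrays for 5 of 37 genes (13.5%, background 11.2%) and below for 6 (16.2%, background 13.5%). Early estrogen lay above Ovx for 3 genes (8.11%, background 13.1%) and below for 4 (10.8%, background 13.3%). Late estrogen lay above Ovx for 4 (10.8%, background 14.9%) and below for 6 (16.2%, background 13.6%). It lay above early estrogen for 2 (5.41%, background 15.6%) and below for 5 (13.5%, background 15.6%). Early estrogen lay above sham for 2 (5.41%, background 11.9%) and below for 5 (13.5%, background 13.4%). Late estrogen lay above sham for 4 (10.8%, background 14.4%) and below for 7 (18.9%, background 16%). The median difference of the list was between -0.06 and 0.00 in all 6 comparisons, and that of all genes between -0.02 and 0.01.

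**Figure D2:**
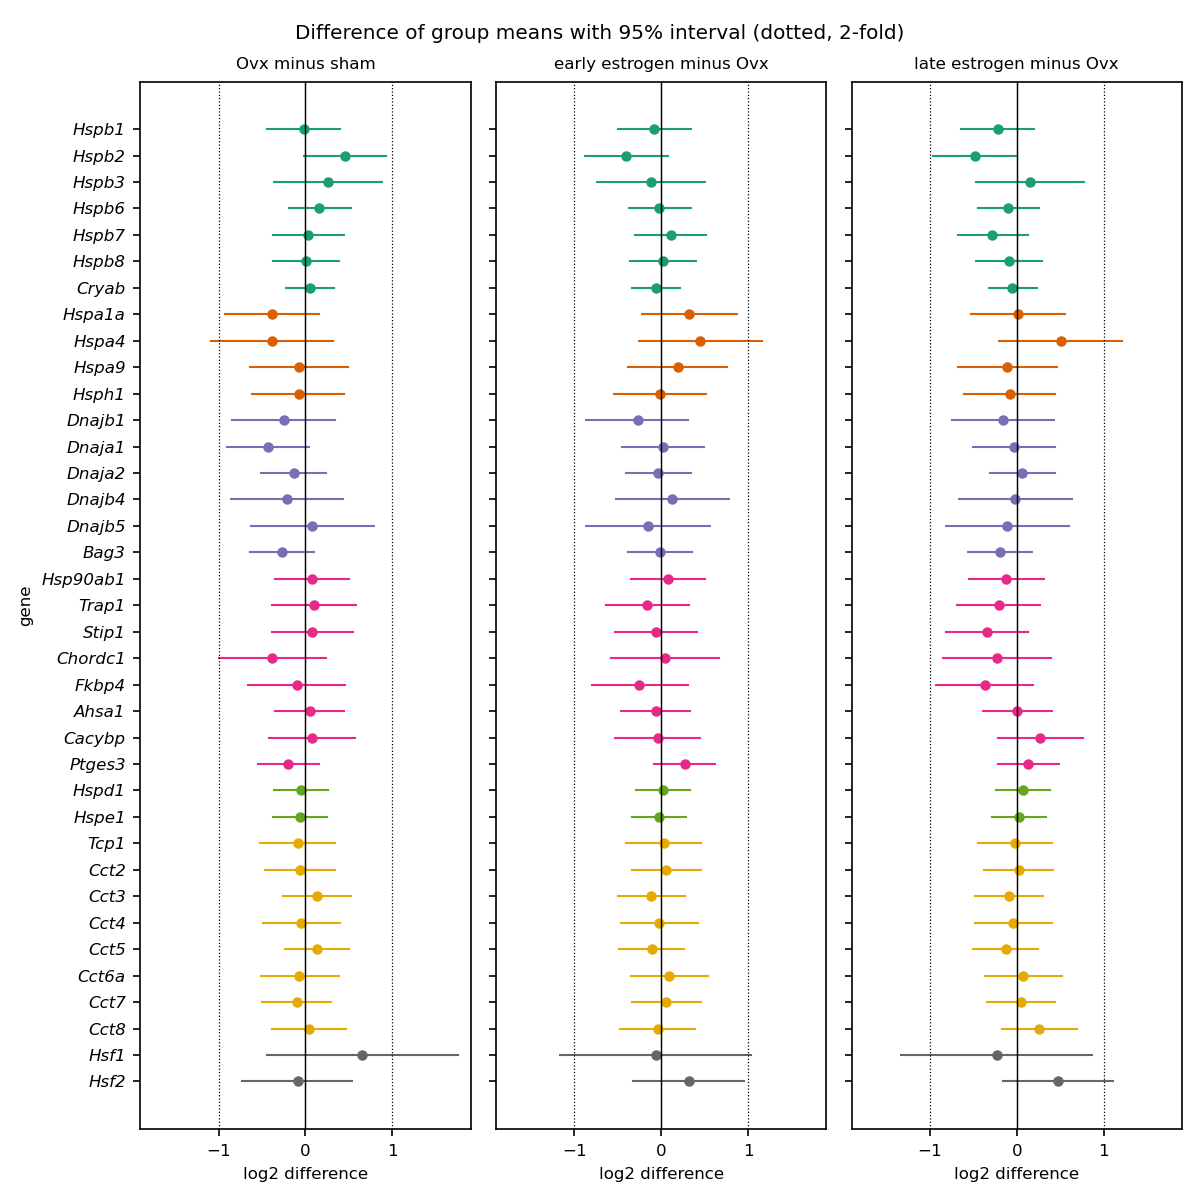
Points are the differences of group means in log2 units for the 37 tested chaperone genes, bars are 95% intervals, colours mark the classes, and dotted lines mark a 2-fold change. Most bars stay between the dotted lines and cross 0, and in the left panel the Hsp40 and BAG genes Dnaja1 and Bag3 lie left of 0 at -0.43 and -0.27.

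Among the small heat shock proteins, Hspb2 stood apart by its level after ovariectomy. Hspb2, a muscle protein that binds the myotonic dystrophy kinase, measured 7.80 and 7.60 in sham, 8.13 and 8.18 in Ovx, 7.65 and 7.86 with early estrogen, and 7.81 and 7.54 with late estrogen. Both Ovx arrays lay above the 6 others, and the other 3 groups overlapped. Its difference was 0.46 ± 0.21 (SE) in Ovx against sham (unadjusted p = 0.0596, adjusted p = 1 in limma). Set against Ovx, it was -0.40 ± 0.21 with early estrogen (unadjusted p = 0.0902) and -0.48 ± 0.21 with late estrogen (unadjusted p = 0.0499, adjusted p = 0.943 in limma), and these 3 comparisons share the Ovx arrays. Leaving out 1 array at a time left the difference of Ovx from sham between 0.35 and 0.56. With only array medians set equal it was 0.23, against a median of -0.18 over all genes, and the arrays overlapped.

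Cryab, the αB-crystallin that guards desmin and is the head-to-head genomic neighbour of Hspb2, did not share that pattern. It measured 12.92 and 12.83 in sham, 12.90 and 12.95 in Ovx, 12.92 and 12.82 with early estrogen, and 12.92 and 12.83 with late estrogen. The 8 arrays spanned 0.13, the narrowest range of the 7 small heat shock proteins. Hspb7, a heart-enriched protein of the sarcomere, measured 11.95 and 11.49 in sham, 11.65 and 11.86 in Ovx, 12.00 and 11.73 with early estrogen, and 11.54 and 11.41 with late estrogen. Both late estrogen arrays lay below both arrays of Ovx and of early estrogen, at -0.28 ± 0.18 and -0.39 ± 0.18 (unadjusted p = 0.0607 for the latter, adjusted p = 0.987 in limma), but they overlapped with sham. With array medians set equal they overlapped with Ovx but not with early estrogen, and without normalization with both. The differences stayed below 0 under both scalings.

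Of the other small heat shock proteins, Hspb3 alone had arrays of compared groups that did not overlap. Hspb1, the Hsp27 that protects actin filaments, was 10.87 and 11.31 in Ovx, and the other groups' means of 10.87 to 11.11 lay within those values. Hspb6, the Hsp20 phosphorylated under adrenergic drive, differed by 0.16 ± 0.16 in Ovx and 0.15 ± 0.16 in early estrogen against sham. Hspb3, the muscle partner of Hspb2, ranged over 0.83, with replicate 1 at 9.52 in Ovx and 9.62 in late estrogen and every other array at or below 9.16. Both late estrogen arrays of Hspb3 lay above both sham arrays, at 0.40 ± 0.28, which became 0.08 without late estrogen replicate 1 and -0.36 without normalization. Its difference of 0.27 ± 0.28 from early estrogen became -0.05 without that array. Hspb8, which works with Bag3 in the disposal of damaged filamin, stayed within 9.83 and 10.13.

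In the Hsp70 and Hsp110 class, differences between replicates of a group were of the size of those between groups. Hspa1a, the stress-inducible Hsp70, measured 8.41 and 8.15 in sham, 8.08 and 7.70 in Ovx, 7.94 and 8.48 with early estrogen, and 7.95 and 7.85 with late estrogen. Both sham arrays lay above the Ovx and late estrogen arrays, and early estrogen ran from below to above both sham arrays. Hspa1a differed by -0.39 ± 0.24 in Ovx against sham and by 0.32 ± 0.24 in early estrogen against Ovx (adjusted p = 1 for both in limma), and by -0.31 ± 0.24 in late against early estrogen. Leaving out 1 array at a time, these ran from -0.58 to -0.20, from 0.05 to 0.59 and from -0.58 to -0.04. Hspa9, the mitochondrial Hsp70 of protein import, measured 9.61 and 9.41 in sham, 9.80 and 9.08 in Ovx, 9.64 and 9.62 with early estrogen, and 9.58 and 9.08 with late estrogen. The lower Ovx and late estrogen arrays of Hspa9 were equal to the second decimal, and the highest value was also in Ovx. Hspa4, an exchange factor of the Hsp110 family, had its lowest value, 6.29, on Ovx replicate 2. Its differences of 0.45 ± 0.32 with early and 0.51 ± 0.32 with late estrogen against Ovx became 0.11 and 0.16 without that array. Hsph1, the other Hsp110, ranged over 0.61.

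The Hsp40 and BAG partners of Hsp70 were the class in which sham stood apart. Bag3, an exchange factor whose mutation causes dilated cardiomyopathy in people, measured 9.63 and 9.80 in sham, 9.37 and 9.51 in Ovx, 9.50 and 9.37 with early estrogen, and 9.32 and 9.19 with late estrogen. Dnaja1, a farnesylated Hsp40 of the cytosol, measured 9.17 and 8.99 in sham, 8.87 and 8.42 in Ovx, 8.54 and 8.81 with early estrogen, and 8.69 and 8.55 with late estrogen. Dnajb1, the Hsp40 induced by heat, measured 7.31 and 7.39 in sham, 7.08 and 7.10 in Ovx, 6.60 and 7.04 with early estrogen, and 7.15 and 6.72 with late estrogen. In each of these genes both sham arrays lay above all 6 arrays of ovariectomised rats. No other gene of the list had this order, so it held for 3 of 37 (8.11%, background 2.26%), and 0 of 37 had both sham arrays below all 6 (background 1.65%).

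The sizes were modest and none was called. Against sham, Bag3 differed by -0.27 ± 0.17 in Ovx, -0.28 ± 0.17 with early estrogen and -0.46 ± 0.17 with late estrogen, the last with a 95% interval of -0.83 to -0.09 (unadjusted p = 0.0208, adjusted p = 0.997 in limma). Dnaja1 differed by -0.43 ± 0.21, -0.41 ± 0.21 and -0.46 ± 0.21 in the same order. Dnajb1 differed by -0.25, -0.53 and -0.41, with an SE of 0.26, and by -0.27 in early estrogen against Ovx. These 3 comparisons share the sham arrays, and the order was noticed after the values were seen. In the same direction, 15 of 37 genes (40.5%, background 24.1%) were lower than sham in all 3 comparisons, 5 of them in the Hsp40 and BAG class of 6, and 6 (16.2%, background 19.1%) were higher.

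Other measurements on the same arrays bore on this order in both ways. A dimmer probe set of Dnaja1, read independently, measured 7.74 and 7.89 in sham and at most 7.67 on the 6 other arrays. A dimmer probe set of Dnajb1 measured 5.56 and 6.16 in sham and overlapped the others, which reached 6.10. Without normalization between arrays, or with only array medians set equal, the differences of Bag3, Dnaja1 and Dnajb1 from sham stayed below 0, but sham no longer lay above all 6 arrays for any gene of the list. With medians set equal, the class median was -0.45 in Ovx, -0.23 with early and -0.67 with late estrogen against sham, where all genes had -0.18, 0.02 and -0.26. The cardiomyocyte markers deviated by 0.07 and 0.01 in sham and by -0.10 to 0.06 on the other arrays, and the part of this in the order was not tested. The remaining members, the Hsp40s Dnaja2, Dnajb4 and Dnajb5, ranged over 0.32 to 0.88, and none had both sham arrays above all 6 others. Both early estrogen arrays of Dnaja2 lay below both sham arrays, at -0.17 ± 0.17. Both late estrogen arrays of Dnajb4 also lay below both sham arrays, at -0.23 ± 0.29. The other comparisons of these genes with sham, and all those of Dnajb5, overlapped. Neither order held with array medians set equal or without normalization.

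**Figure D3:**
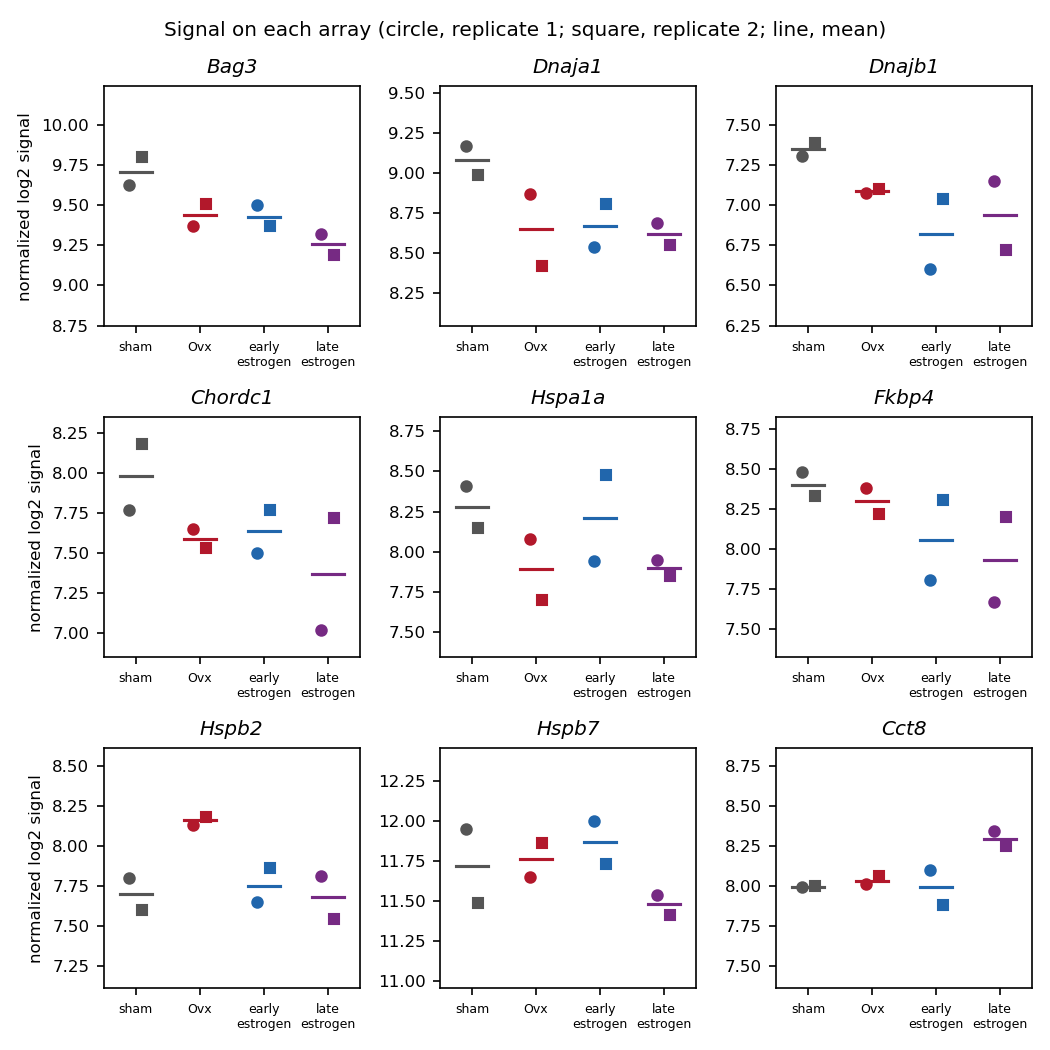
Normalized log2 signal on each array for 9 chaperone genes, with circles for replicate 1, squares for replicate 2 and a line at each group mean, and each panel spans 1.5 log2 units. The sham points of Bag3, Dnaja1 and Dnajb1 lie above every other point, those of Ovx do so for Hspb2 at 8.13 and 8.18, and those of late estrogen do so for Cct8 at 8.34 and 8.25, orders that hold under quantile normalization and not without normalization between arrays.

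Heat shock elements, the sites that Hsf1 binds, were sought in the promoters of the listed genes in RefSeq (assembly GRCr8). Each promoter was a window of 250 bases before and 50 after a start position, which was not always the gene's outer end. The windows of Hspb8, Hspa2, Hspa4, Hspa9 and Hspd1 lay wholly inside the gene. The runs of matching letters in Dnaja1, Chordc1 and Cct4 also lay inside those genes. A window was found for 34 of the 41 genes. Paired units of the element were searched as GAANNTTC and TTCNNGAA, which read the same on both strands, and a run of 3 units as GAANNTTCNNGAA on both strands, which contains and overlaps the paired ones. One or the other pair was in 19 of 34 chaperone promoters (55.9%) and in 15.9% of 33469 promoters. The run of 3 units was in 7 of 34 (20.6%), namely Hspa8, Hsph1, Dnaja1, Chordc1, Hspd1, Hspe1 and Cct4, and in 0.798% of all promoters. Hspd1 and Hspe1 share the same run, which is counted under both genes. A match describes the letters only. The windows of the 3 genes with sham highest are shown first because each holds such letters, and those of Chordc1 and Hspe1 as examples of longer runs. Capitals mark the letters that match.
Dnaja1 (chr5:60638154-60638453, + strand): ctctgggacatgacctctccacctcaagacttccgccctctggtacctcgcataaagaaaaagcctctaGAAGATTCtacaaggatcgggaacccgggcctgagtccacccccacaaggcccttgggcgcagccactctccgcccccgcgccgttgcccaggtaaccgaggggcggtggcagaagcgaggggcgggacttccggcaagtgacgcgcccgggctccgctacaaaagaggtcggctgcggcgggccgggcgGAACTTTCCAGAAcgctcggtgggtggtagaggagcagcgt
Dnajb1 (chr19:41431092-41431391, - strand): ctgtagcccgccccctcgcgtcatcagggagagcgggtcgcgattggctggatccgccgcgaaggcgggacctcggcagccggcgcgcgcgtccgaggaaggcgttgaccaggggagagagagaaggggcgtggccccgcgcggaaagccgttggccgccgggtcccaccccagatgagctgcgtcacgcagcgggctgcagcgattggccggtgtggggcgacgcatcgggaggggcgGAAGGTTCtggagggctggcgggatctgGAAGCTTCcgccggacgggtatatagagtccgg
Bag3 (chr1:192533210-192533509, + strand): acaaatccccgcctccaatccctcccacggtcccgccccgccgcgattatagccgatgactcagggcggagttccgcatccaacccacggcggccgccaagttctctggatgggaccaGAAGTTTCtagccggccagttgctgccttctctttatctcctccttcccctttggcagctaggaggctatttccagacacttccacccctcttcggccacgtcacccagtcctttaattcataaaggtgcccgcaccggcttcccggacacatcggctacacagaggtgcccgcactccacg
Chordc1 (chr8:23650571-23650870, + strand): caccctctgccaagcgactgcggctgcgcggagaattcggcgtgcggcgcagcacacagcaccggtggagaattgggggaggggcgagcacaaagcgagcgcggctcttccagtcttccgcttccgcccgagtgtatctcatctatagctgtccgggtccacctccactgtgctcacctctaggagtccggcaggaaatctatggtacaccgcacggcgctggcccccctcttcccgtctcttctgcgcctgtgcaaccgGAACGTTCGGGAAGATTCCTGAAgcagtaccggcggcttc
Hspe1 (chr9:64084077-64084376, + strand): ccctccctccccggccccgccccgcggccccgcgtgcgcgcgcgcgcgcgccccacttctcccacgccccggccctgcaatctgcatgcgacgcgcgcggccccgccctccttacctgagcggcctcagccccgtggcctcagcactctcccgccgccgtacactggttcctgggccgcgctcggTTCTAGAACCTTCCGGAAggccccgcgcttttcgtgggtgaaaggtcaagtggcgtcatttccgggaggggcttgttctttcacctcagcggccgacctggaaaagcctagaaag

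Differences of genes with and without these letters are given as a description. Hspe1, with a run of more than 3 units, was among the steadiest genes of the list, and Hspd1 faces it from the other strand, their windows sharing 211 bases. The run in both windows is the same stretch of letters read from opposite strands, so these genes do not count as separate runs. Hspa1a had no match in its window. Over the tested genes with a window, the 17 with a pair had median differences from sham of -0.06 in Ovx, -0.06 with early and -0.17 with late estrogen. The 15 without had 0.03, 0.00 and -0.04. Lower than sham in Ovx were 12 of the 17 and 7 of the 15, and the 3 genes with sham above all other arrays were among the 17. The 6 tested genes with 3 units were all lower than sham in Ovx and with early estrogen, and 5 of 6 were with late estrogen, with medians of -0.07, -0.08 and -0.13. Of all 10450 genes tested, 5508 were lower than sham in Ovx, 5378 with early and 5515 with late estrogen. These comparisons share the sham arrays, and no test was made.

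Hsp90 and its co-chaperones include the proteins that hold steroid receptors ready for hormone, and no gene among them was called. Hsp90ab1, the constitutive cytosolic Hsp90, measured 11.11 and 10.81 in sham, 11.05 and 11.02 in Ovx, 11.26 and 10.97 with early estrogen, and 10.69 and 11.15 with late estrogen. Its late estrogen arrays spanned most of the range, its interval lay inside a 2-fold change in every comparison, and early estrogen differed from sham by 0.15 ± 0.19. Fkbp4, the immunophilin FKBP52 of steroid receptor complexes, measured 8.48 and 8.33 in sham, 8.38 and 8.22 in Ovx, 7.81 and 8.31 with early estrogen, and 7.67 and 8.20 with late estrogen. Both arrays of each estrogen group lay below both sham arrays, the early ones narrowly (8.31 against 8.33), and the late ones narrowly below Ovx (8.20 against 8.22). Its lowest values were on replicate 1 of both estrogen groups, and the difference of early estrogen from Ovx, -0.25 ± 0.25, became 0.00 without early estrogen replicate 1. Ptges3, the p23 that stabilises Hsp90 bound to its client, was 9.56 and 9.59 in Ovx and 9.62 to 9.89 elsewhere, so Ovx was lowest. It differed by 0.27 ± 0.16 in early estrogen against Ovx (adjusted p = 1 in limma). With only array medians set equal or without normalization, its Ovx arrays overlapped with the others. Under both scalings no gene of this class had separated arrays in any comparison, so the orders given for Fkbp4, Chordc1 and Stip1 also rest on quantile normalization.

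Chordc1, a co-chaperone also called morgana, measured 7.77 and 8.18 in sham, 7.65 and 7.53 in Ovx, 7.50 and 7.77 with early estrogen, and 7.02 and 7.72 with late estrogen. Both sham arrays lay above those of Ovx and of late estrogen, and the first equalled the higher early estrogen array to the second decimal. Its difference in late estrogen against sham was -0.61 ± 0.28 (unadjusted p = 0.0539, adjusted p = 0.997 in limma) and became -0.26 without late estrogen replicate 1. Stip1, which bridges Hsp70 and Hsp90, differed by -0.34 ± 0.21 in late estrogen against Ovx and -0.28 ± 0.21 against early estrogen, with both late estrogen arrays below in each. Cacybp, a calcyclin-binding partner, reached 8.36 on late estrogen replicate 2 and was at most 7.99 on every other array. Late estrogen differed by 0.34 ± 0.22 from sham and by 0.31 ± 0.22 from early estrogen. These became -0.06 and -0.16 when its probe sets were averaged and -0.39 and -0.29 without normalization. Trap1, the mitochondrial Hsp90, was between 7.66 and 8.15. Ahsa1, which activates the Hsp90 ATPase, ranged over 0.12, the narrowest of the list.

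The chaperonins were the steadiest classes. Hspe1, the Hsp10 lid of the mitochondrial chaperonin, measured 10.97 and 11.11 in sham, 11.02 and 10.94 in Ovx, 11.00 and 10.92 with early estrogen, and 11.03 and 10.98 with late estrogen. Hspd1, the Hsp60 barrel it closes, ranged from 10.79 to 10.96 over the 8 arrays. Groups overlapped for both genes in all 6 comparisons, and every 95% interval lay inside a 1.5-fold change.

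The 8 CCT subunits form a ring of fixed make-up, and their medians lay between -0.05 and 0.00 in all 6 comparisons under quantile normalization. With only array medians set equal, the median of late estrogen against sham was -0.39, where all genes had -0.26. Cct5 measured 10.26 and 10.27 in sham, 10.45 and 10.34 in Ovx, 10.14 and 10.43 with early estrogen, and 10.39 and 10.14 with late estrogen. Its Ovx arrays lay above sham, and each estrogen group had 1 array below sham and 1 above. With array medians set equal or without normalization, all 8 subunits, Cct5 included, were lower in Ovx than in sham. No subunit then had both Ovx arrays above both sham arrays. Every subunit's intervals were inside a 2-fold change, and those of 7 of 8 inside a 1.5-fold change. Ranges over the 8 arrays ran from 0.30 for Cct2 to 0.47 for Cct4.

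Cct8 was the subunit with the smallest p. It measured 7.99 and 8.0 in sham, 8.01 and 8.06 in Ovx, 8.10 and 7.88 with early estrogen, and 8.34 and 8.25 with late estrogen. Both late estrogen arrays lay above the 6 others. The differences of late estrogen were 0.30 ± 0.19 against sham, 0.26 ± 0.19 against Ovx and 0.30 ± 0.19 against early estrogen (adjusted p at least 0.943 in limma). Without normalization between arrays these became -0.44, -0.10 and -0.30, and with array medians set equal the first became -0.05 and the last -0.08, so the direction rests on the scaling. A dimmer probe set of Cct8 did not share the order, at 6.17 and 7.02 with late estrogen and 6.22 to 6.80 elsewhere. Late estrogen there differed by 0.08 from sham, 0.08 from Ovx and -0.16 from early estrogen.

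The heat shock factors were measured least closely. Hsf2, a factor active in development, measured 6.79 and 7.07 in sham, 7.12 and 6.56 in Ovx, 7.13 and 7.18 with early estrogen, and 7.55 and 7.08 with late estrogen. Both arrays of each estrogen group lay above both sham arrays, the late ones narrowly (7.08 against 7.07), and Ovx overlapped with sham. Its difference of 0.47 ± 0.29 in late estrogen against Ovx became 0.19 without Ovx replicate 2. Of 2 dimmer tested probe sets of Hsf2, 1 differed from sham by -0.60 in Ovx, -0.26 with early and -0.64 with late estrogen. The other differed by 0.03, 0.22 and 0.09. Hsf1, the main stress-responsive factor, measured 4.91 and 5.76 in sham, 5.68 and 6.30 in Ovx, 5.64 and 6.21 with early estrogen, and 5.15 and 6.36 with late estrogen. Replicate 2 was higher than replicate 1 in all 4 groups of Hsf1, by 0.57 to 1.20. Its difference from sham was 0.65 ± 0.49 in Ovx and 0.59 ± 0.49 with early estrogen, with both replicate numbers above the sham array of the same number in all 3 ovariectomised groups. Its mRNA level does not report the activation of the protein, which is controlled after translation. With array medians set equal or without normalization, neither factor had both arrays of a group above both sham arrays. Without normalization both factors were lower in late estrogen than in sham, with a median of -0.21.

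Where a gene had more than 1 probe set of its own, the dimmer ones did not always follow the brightest. There were 16 other tested probe sets for 13 of the genes, and their difference had the sign of the brightest in 11 of 16 for Ovx against sham, 8 for early estrogen against Ovx, 12 for late estrogen against Ovx, 7 for late against early estrogen, 12 for early estrogen against sham and 12 for late estrogen against sham. The medians parted most where late estrogen was compared. In late against early estrogen the 16 had a median of -0.61 and the brightest probe sets of the same 13 genes -0.02, where all genes with other probe sets had -0.16 and 0.01. In late estrogen against sham the medians were -0.46 and -0.05, where all such genes had -0.13 and 0.00, and in late estrogen against Ovx they were -0.40 and -0.09. In the other 3 comparisons they differed by at most 0.17. In late estrogen against sham, Hsph1 differed by -1.05 on its other probe set and -0.17 on its brightest. Dnajb5 differed by -0.86 against -0.03, Hspb7 by -0.81 against -0.24 and Cacybp by -0.46 against 0.34 (adjusted p = 0.997 for all in limma).

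**Figure D4:**
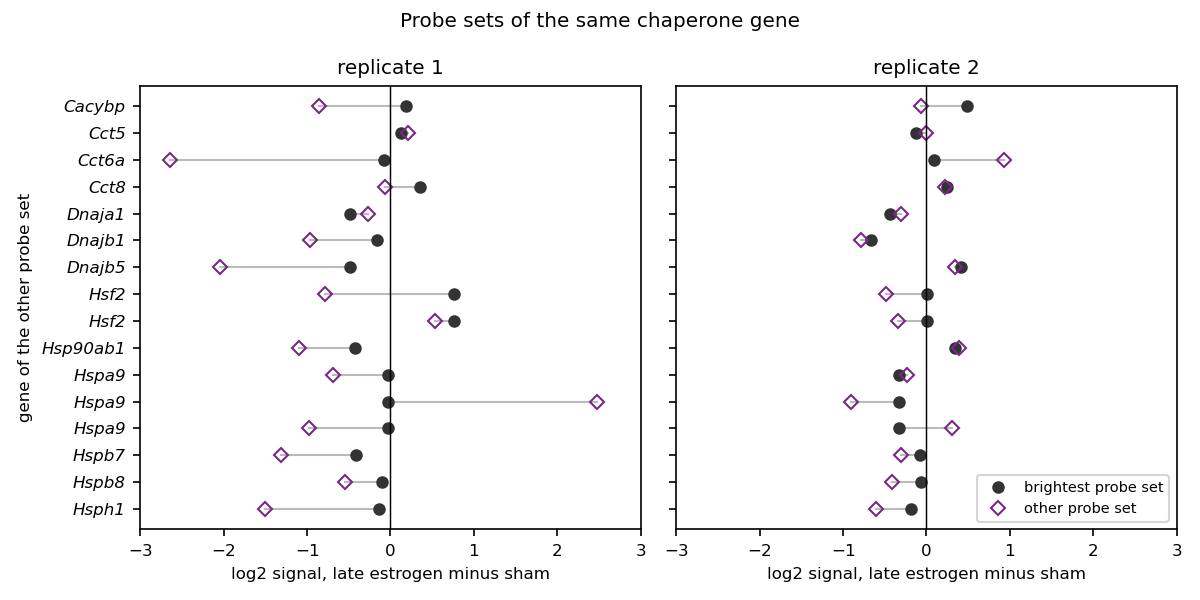
Difference of late estrogen from sham in log2 units for the brightest probe set (filled circle) and another probe set (open diamond) of the same chaperone gene, by replicate number. In replicate 1 most diamonds lie left of their circles, with a median of -0.82 over the 16 diamonds, and in replicate 2 the median is -0.27.

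In late estrogen against sham, the gap was larger with late estrogen replicate 1 than without it. For Hsph1 the other probe set was at 4.39 on late estrogen replicate 1 and at 5.72 to 6.39 on every other array, and for Cct6a at 4.33 against 6.04 to 7.30. Late estrogen replicate 1 was the lowest of the 8 arrays for 8 of the 16 other probe sets (50%, background 28.9% of 3473 such probe sets), but for 6 of the 37 brightest (16.2%, background 23.9%). Without that array the median of the 16 was -0.25, and without late estrogen replicate 2 it was -0.60. This is the array with the lowest brightness and the Gapdh ratio of 2.703. Its actin ratio of 3.007 was below the 3.061 of Ovx replicate 2. The part of brightness or RNA length in the gap was not tested.

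The wider chaperone network was read from 62 other tested genes, and 0 of them were called in any comparison. Their medians lay between -0.06 and 0.04, and those with an unadjusted p under 0.05 were 2 in late estrogen against Ovx (3.23%, all genes 3.99%), 3 against early estrogen (4.84%, all genes 3.30%) and 4 against sham (6.45%, all genes 2.82%). There were 0 in the other 3 comparisons. Hspa4l, a heat-inducible relative of Hspa4, measured 6.62 and 6.88 in sham, 6.33 and 6.13 in Ovx, 6.25 and 6.46 with early estrogen, and 6.00 and 5.85 with late estrogen. It was the 1 gene of the 62 (1.61%, background 2.26%) with both sham arrays above all 6 others, with differences of -0.52 ± 0.28 in Ovx, -0.39 ± 0.28 with early estrogen and -0.82 ± 0.28 with late estrogen. That order needed quantile normalization. Early estrogen overlapped with sham when array medians were set equal, and both Ovx and early estrogen did so without normalization. Aarsd1, a gene of the Hsp90 co-chaperone list, was 8.48 and 8.09 with late estrogen and 7.52 to 7.86 elsewhere, a difference of 0.76 ± 0.23 from Ovx (unadjusted p = 0.00832, adjusted p = 0.943 in limma). Without normalization that difference was 0.38 with overlapping arrays, and the difference of late estrogen from sham turned to -0.14. Fkbp5, the glucocorticoid-responsive immunophilin, differed by -0.45 ± 0.32 in Ovx against sham and 0.41 ± 0.32 in early estrogen against Ovx.

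Prefoldin and the tubulin cofactors, which hand actin and tubulin to CCT and finish tubulin folding, were higher in late estrogen than in sham for 10 of 12 genes, with both arrays above both sham arrays for 8 of 12 and a median difference of 0.19, a direction that flipped to -0.13 with array medians set equal and to -0.52 without normalization (all genes -0.26 and -0.65). Pfdn5, a prefoldin subunit, was 9.75 on both late estrogen arrays and 9.34 to 9.52 on the others, a difference of 0.39 ± 0.15 from sham (adjusted p = 0.997 in limma) that became 0.00 and -0.38 under those scalings. The background for such separated arrays was 14.4% of genes, and CCT itself had 1 of 8, Cct8. Serpinh1, the collagen chaperone Hsp47, was 9.03 and 8.87 in sham, 8.88 and 9.27 in Ovx, 8.65 and 9.11 with early estrogen, and 7.99 and 8.71 with late estrogen. It differed by -0.72 ± 0.27 in late estrogen against Ovx (unadjusted p = 0.0232, adjusted p = 0.943 in limma). All 6 fibroblast markers were tested, and their mean deviation was 0.06 and -0.22 in sham, 0.30 and 0.47 in Ovx, 0.45 and 0.00 in early estrogen, and -0.63 and -0.43 in late estrogen. The part of these cells in the level of Serpinh1 was not tested. Sqstm1, the autophagy receptor p62, was 9.51 and 9.54 with late estrogen and 9.80 to 10.17 elsewhere, a difference of -0.50 ± 0.17 from sham and -0.52 ± 0.17 from early estrogen. With array medians set equal or without normalization, the late estrogen arrays of Serpinh1 overlapped with Ovx. Those of Sqstm1 overlapped with Ovx and early estrogen, while both genes stayed lower in late estrogen.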

How the data were processed

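Total RNA of rat hearts was measured on 8 single-colour Affymetrix arrays. The authors deposited 1 linear signal intensity a probe set on each array, and the submitters' processing notes name MAS5. Its version, scaling and detection calls were not given. Because the deposited arrays differed in brightness, log2 values were quantile normalized. Without the 57 control probe sets 31042 remained, and a filter on the mean at the 40th percentile kept 18625 for testing.

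The model was limma's (version 3.58.1, R 4.3.3), with 4 group means over 8 arrays, an intensity trend and 4 residual degrees of freedom, two-sided. P-values were adjusted by Benjamini-Hochberg over all tested probe sets within each comparison, at a threshold of 0.05. The same test was run on simulated data. The number of arrays limits the precision. Gene names came from the platform annotation, in which 20826 probe sets had 1 symbol, 436 several and 9780 none, and all 38 measured genes matched RefSeq (GRCr8). A gene was its brightest probe set, and genes whose probe sets share several symbols were not named.

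Every array is given for the 10 chaperone genes of smallest F test p and the brightest of each class, and differences for the 3 of smallest p in each direction of a comparison. Of the other genes, the 2 of smallest p in each direction were the pool for naming. Values of Hspb1, Hspb3, Hspb8, Ahsa1, Trap1, Hsph1, Hspd1 and Hsf1, and the order of sham against the other arrays, were chosen after they were seen. The listed genes and gene lists were chosen with earlier results of these data known. The labels number the pools 1 and 2 in each group. The difference of replicate 2 from replicate 1 correlated across probe sets between groups at r = 0.28 to 0.33 in all 6 pairs of groups, so the numbers were taken as a pairing and a fit with a replicate block was tried. Other alternatives were the scaling, an added constant, the filter, the trend, the choice of probe set and leaving out arrays.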

Additional observations from a re-analysis of the deposited data

How the results depend on the processing

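No chaperone gene was called under any alternative run, and of 612 values of 36 named differences, 596 kept their direction. That count says little about robustness, because many of the 612 values could not change direction. The trend, the replicate block, the filter and the probe set endings leave a fitted difference as it was. An array left out of a group outside the comparison has little or no bearing on it. The 16 reversals came from the scaling, arrays left out and averaged probe sets. With 2 pools a group, leaving out an array makes 1 lone pool, assumed to vary like the others. With a replicate block, 1 probe set was called in late estrogen against Ovx, as with 32 added before log2 and with no filter, and the smallest adjusted p of a chaperone gene was 0.617; the block changed no other call. Without the 2 dimmest arrays, 5 were called in Ovx against sham. Leaving out 1 array at a time, calls ran from 0 to 3 in Ovx against sham, 0 to 65 in late estrogen against Ovx, 0 to 100 against early estrogen and 0 to 86 against sham, the highest of the last 3 without late estrogen replicate 2, and 0 to 1 in the F test.

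Scaling moved the medians of the list with those of all probe sets. Without normalization they were -0.35 in Ovx against sham, 0.20 in early estrogen against Ovx, -0.42 in late estrogen against Ovx, -0.63 against early estrogen, -0.15 in early estrogen against sham and -0.81 in late estrogen against sham (all probe sets -0.31, 0.18, -0.31, -0.48, -0.14 and -0.62). With array medians set equal they were -0.21, 0.22, -0.17, -0.41 and, in late estrogen against sham, -0.42 (all probe sets -0.17, 0.20, -0.06, -0.25 and -0.23). Without the 2 dimmest arrays they were -0.10 in Ovx against sham and 0.06 in late estrogen against Ovx. Leaving out 1 array, they ran from -0.10 to 0.03, -0.05 to 0.01, -0.12 to 0.01, -0.10 to 0.02, -0.05 to 0.02 and -0.13 to -0.04 in the same order of comparisons. The count of genes with sham above all other arrays was 0 under both scalings, 5 without the 2 dimmest arrays and 3 to 8 leaving out 1 array. The count with every interval inside a 2-fold change was 0 under both scalings and 23 to 28 leaving out 1 array. Both counts, and the median that follows, were chosen after the data were seen. The median of the other probe sets in late estrogen against sham was -1.06 without normalization, -0.67 with medians equal, -0.32 with 32 added, -0.25 without the 2 dimmest arrays and -0.60 to -0.25 leaving out 1 array.

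The cause of the following reversals was not tested. Without normalization, Cct8 was -0.10 in late estrogen against Ovx, -0.30 against early estrogen and -0.44 against sham, Hspb3 was -0.34 and -0.36 in the last 2, and Cacybp -0.29 and -0.39. With medians equal, late against early estrogen was -0.12 for Hspb3, -0.07 for Cacybp and -0.08 for Cct8, late estrogen against sham was -0.05 for Cct8, and early estrogen against Ovx was 0.01 for Fkbp4. Hspb3 in late against early estrogen was -0.05 without the 2 dimmest arrays and ran from -0.05 to 0.59 leaving out 1 array. With probe sets averaged, Cacybp was -0.16 in late estrogen against early estrogen and -0.06 against sham.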

Other observations

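The shares of chaperone genes ordered by replicate number were near those of all genes. Replicate 2 lay above replicate 1 in all 4 groups for 6 of 37 genes (16.2%, against 15.9% of all genes), namely Hspb8, Hsph1, Ptges3, Cct4, Cct6a and Hsf1. Replicate 2 lay below replicate 1 in all 4 groups for 5 (13.5%, against 12.2%), namely Hspb6, Hspa9, Dnajb4, Ahsa1 and Cct3. Neither mitochondrial chaperonin gene was among them.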
